A study of Homo sapiens with 9 samples.

Results

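The transcripts of 44 genes of mitosis and the G2/M transition were followed across H295R cells, a human adrenocortical carcinoma line that makes steroid hormones. The genes were taken by symbol and found by Ensembl identifier among the 60671 genes counted, and 43 of the 44 had enough counts to be tested, among 14150 genes tested in all. The cells fell into 3 groups of 3 libraries each: cells labelled as overexpressing SGPL1 (OE), SGPL1 knockout cells (KO) and cells labelled WT with no stated change. SGPL1 encodes sphingosine-1-phosphate lyase, which ends the signalling lipid sphingosine-1-phosphate by cleaving it. All groups were grown in the same serum-supplemented medium with no treatment, and poly-A RNA was sequenced. The sources used here give neither the edit nor the construct, nor whether a group was 1 clone or several cultures. P-values therefore reflect how far these particular libraries spread, which may be technical.

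Genes of this group are switched on late in the cell cycle. FOXM1 and the DREAM and MuvB complexes act on promoters that hold a CHR element or CCAAT boxes, and the products then drive entry into mitosis, attach chromosomes to the spindle, separate them and split the cell. Ki-67, the product of MKI67, is widely used in adrenocortical tumours as a marker of dividing cells.

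SGPL1 itself stood at 98.1, 81.3 and 101.2 CPM (each gene's counts relative to the library total after TMM scaling) in the libraries labelled OE, 47.2, 43.9 and 53.8 CPM in KO and 101.5, 83.4 and 98.1 CPM in WT. It was lower in KO than in WT (log2 fold change -0.97 ± 0.14 SE, edgeR adjusted p = 0.000105), whereas the OE and WT libraries overlapped (-0.01 ± 0.14, adjusted p = 0.966), so the OE libraries are named by their label only. Library totals lay between 8006873 and 10895080 counts. Levels tilted with gene length: the slope of log2 CPM on log2 exon length was -0.20 to -0.08 in the OE libraries, 0.04 to 0.13 in KO and -0.05 to 0.10 in WT. OE replicate 2 and WT replicate 2 had the lowest slope of their groups and stood apart, and counts of calls and the called differences of the mitosis genes from WT are given with and without them. The share of counts from mitochondrial genes was 1.34 to 1.45% in OE, 0.80 to 0.946% in KO and 0.79 to 0.867% in WT, and that from ribosomal protein genes 6.31 to 8.1%, 3.54 to 4.19% and 4.5 to 5.87% in the same order. All 10 adrenocortical markers were detected and tested, and no fibroblast, leukocyte, endothelial or epithelial marker passed 126, 26, 4 and 293 counts in any library. Of the adrenocortical markers, 4 rose in OE and 5 in KO against WT and 0 fell, with summed counts of 19580 to 24333 in OE, 20615 to 22474 in KO and 15326 to 17428 in WT. Of all genes tested, 9.65% rose in OE and 9.16% in KO. The median log2 fold change of these markers was 0.39 in OE and 0.40 in KO, beside -0.01 and -0.007 over all genes. With the length offset described with the length results, 2 rose in OE and 6 in KO. Among the few other markers that could be tested, COL3A1 of fibroblasts fell in OE and in KO against WT and EPCAM of epithelium fell in KO. The part of these shifts in the mitosis values was not tested.

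The mitosis genes were lower, as a list, in the libraries labelled OE. Against WT, 14 of the 43 fell (32.6%, beside 11% of all genes tested) and 1 rose (2.33%, beside 9.65%) by edgeR's quasi-likelihood test at an adjusted p under 0.05. MKI67, CENPF, CENPE and INCENP fell most, and BIRC5 was the gene that rose. The median log2 fold change over the 43 genes was -0.18, beside -0.01 over all genes. Fewer dividing cells, less of these RNAs per dividing cell and the tilt with gene length in the OE libraries cannot be told apart in these bulk RNA data.

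Against KO, the split was wider: 22 genes were lower in OE (51.2%, beside 20.6% of all genes) and 3 were higher (6.98%, beside 19%), with a median of -0.39, beside -0.004 over all genes. CCNB1, BUB3 and BIRC5 were the 3 higher genes. In KO against WT, 6 genes rose (14.0%, beside 9.16% of all genes) and 2 fell (4.65%, beside 9.6%), with a median of 0.11, beside -0.007. These KO shares lie near the background, so they are read gene by gene. The comparisons with WT share the WT libraries, and the values of each are given side by side.

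Leaving out OE replicate 2 and WT replicate 2 together, a choice made after seeing the data, gave 15 genes lower and 1 higher in OE against WT (34.9% and 2.33%, beside 11.7% and 10.6% of all genes). It gave 22 lower and 3 higher in OE against KO, beside 18.6% and 17.5% of all genes, and 4 and 8 in KO against WT, beside 10.9% and 10.1%. The 14 genes that fell in OE against WT did so again, with ANLN added, and the calls of OE against KO were the same genes. WT replicate 2, with a slope of -0.053, was the WT library nearest in length slope to the OE libraries. The slopes left were -0.075 and -0.083 in OE and 0.056 and 0.103 in WT, so this check cannot separate group from slope. Without the pair, the differences of OE from WT were -1.55 ± 0.26 for CENPE, -0.90 ± 0.14 for CKAP5, -0.89 ± 0.15 for ESPL1, -0.77 ± 0.17 for SMC2, -0.73 ± 0.11 for FOXM1, -0.69 ± 0.15 for SMC4 and -0.62 ± 0.11 for TOP2A. Those of KIF4A and NCAPD2 were -0.53 ± 0.13 and -0.53 ± 0.10, those of BUB1B and KIF11 -0.52 ± 0.14 and -0.42 ± 0.13, and that of BIRC5 was 0.48 ± 0.10. Against WT, the extra KO calls were MKI67 and CENPF, lower, and CDCA3, MAD2L1 and NEK2, higher, while BUB1B was no longer called (0.36 ± 0.13, adjusted p = 0.0504). The calls that held there were NCAPD2 at 0.75 ± 0.09, KIF23 at 0.41 ± 0.10, CCNA2 at 0.36 ± 0.09, AURKA at 0.34 ± 0.11, FOXM1 at 0.31 ± 0.10, BUB3 at -0.51 ± 0.09 and CCNB1 at -0.66 ± 0.08.

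The median log2 ratio of the 43 genes to the WT mean was -0.20, -0.37 and -0.15 in OE replicates 1 to 3, 0.03, 0.09 and 0.15 in KO, and -0.01, -0.02 and 0.03 in WT. Every OE library thus lay below every KO and WT library on this measure. The groups did not overlap for 17 lower and 3 higher genes in OE against WT (18.6% and 17.8% of all genes), for 26 and 4 in OE against KO (26.4% and 25.3%), and for 2 and 10 in KO against WT (17.6% in each direction).

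**Figure D1:**
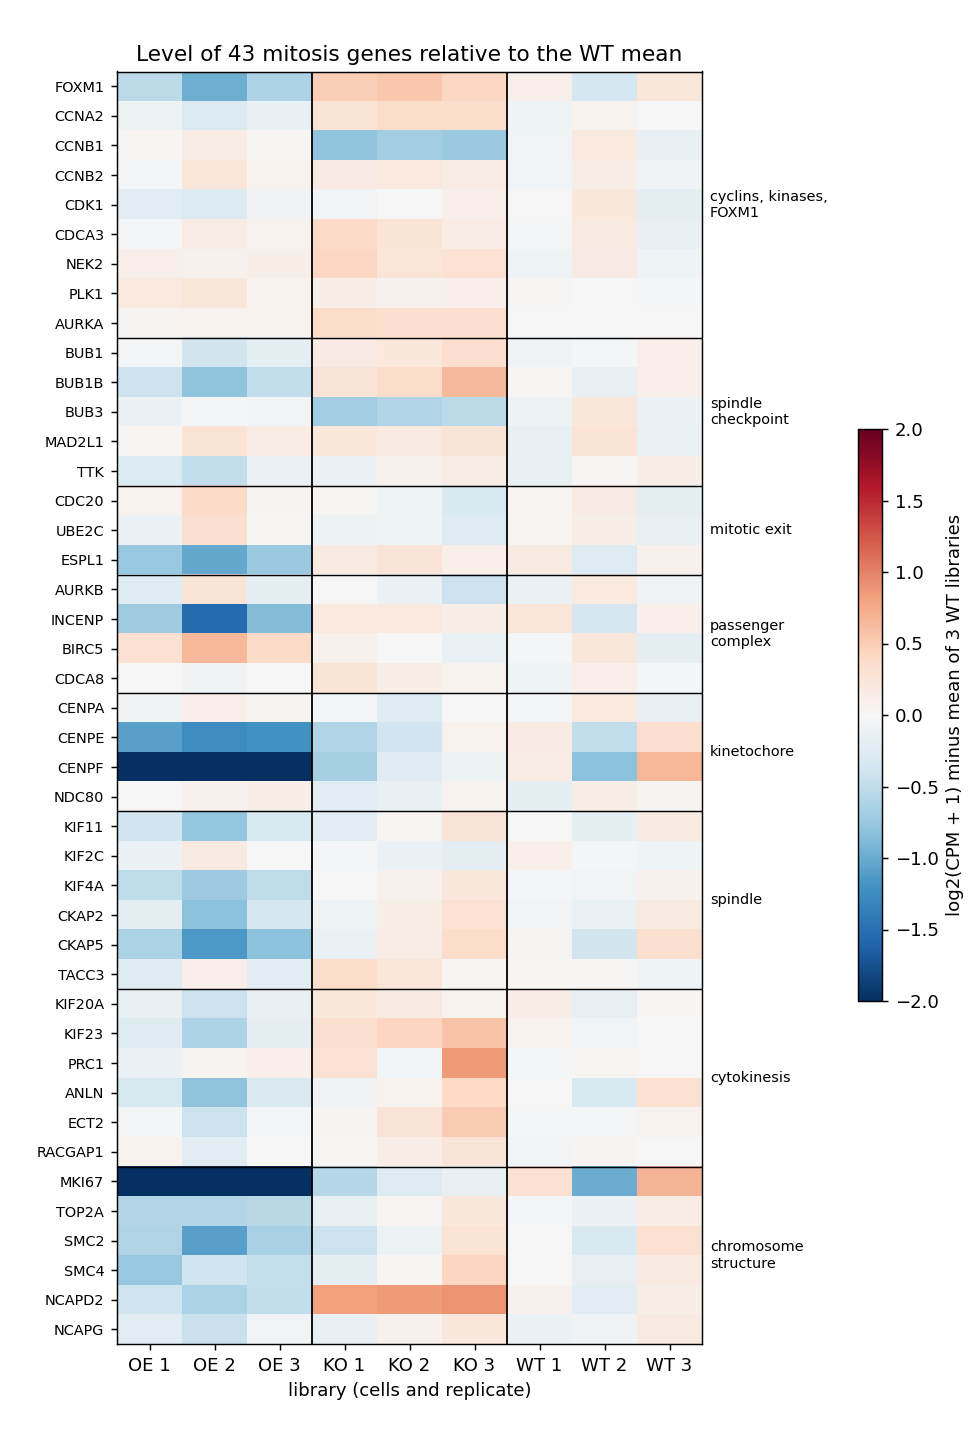
Level of each of the 43 tested genes in each library, as log2(CPM + 1) minus the mean of the 3 WT libraries, grouped by role, with the colour scale ending at -2 and 2. MKI67 and CENPF are dark blue in all 3 OE libraries, CCNB1 and BUB3 are blue and NCAPD2 is red in all 3 KO libraries.

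Promoter windows of 300 bases, from 250 before to 50 after each RefSeq transcription start (GRCh38.p14), were available for 37 of the 44 genes in 42 windows. Of these, 69.0% held a CHR element (TTTGAA), 69.0% a CCAAT box (CCAAT) and 52.4% held both, searching either strand. Among 35116 windows of all genes the shares were 15.2%, 34.6% and 5.9%, and among those of tested protein-coding genes 10.6%, 35.0% and 4.34%. The genes that fell in OE against WT held a CHR element in 80.0% of 15 windows, a CCAAT box in 60.0% and both in 60.0%. Those not called there held a CHR element in 61.5% of 26 windows, a CCAAT box in 73.1% and both in 46.2%. In OE against KO the order was the other way for the CHR element and for both motifs together. They were in 66.7% and 45.8% of 24 windows of the lower genes, against 75.0% and 62.5% of 16 windows of those not called. The CCAAT box kept its order, with 58.3% in the lower genes against 81.2% in those not called. Each of these sets held the motifs in a larger share than all windows. The windows of the 5 genes with both motifs and the smallest adjusted p over the 3 comparisons follow, to show where the motifs lie in genes that were all lower in OE than in both other groups. Capitals mark TTTGAA and CCAAT, or ATTGG where the CCAAT lies on the other strand.
The window of NCAPD2 lies at chr12:6493852-6494151 (plus strand), that of CENPF at chr1:214602945-214603244 (plus), that of MKI67 at chr10:128126374-128126673 (minus), that of ESPL1 at chr12:53268049-53268348 (plus) and that of INCENP at chr11:62123761-62124060 (plus).
NCAPD2: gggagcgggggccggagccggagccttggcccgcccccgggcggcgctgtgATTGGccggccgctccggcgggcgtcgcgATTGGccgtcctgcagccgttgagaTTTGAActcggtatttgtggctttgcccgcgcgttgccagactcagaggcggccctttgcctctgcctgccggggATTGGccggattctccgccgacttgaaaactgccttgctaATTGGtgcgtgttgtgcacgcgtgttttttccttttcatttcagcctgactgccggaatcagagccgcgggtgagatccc
CENPF: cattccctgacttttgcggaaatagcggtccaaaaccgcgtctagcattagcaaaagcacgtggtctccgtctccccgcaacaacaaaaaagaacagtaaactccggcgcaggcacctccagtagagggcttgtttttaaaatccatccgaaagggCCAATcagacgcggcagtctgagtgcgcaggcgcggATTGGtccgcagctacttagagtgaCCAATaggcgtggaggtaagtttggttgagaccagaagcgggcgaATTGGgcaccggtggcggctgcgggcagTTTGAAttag
MKI67: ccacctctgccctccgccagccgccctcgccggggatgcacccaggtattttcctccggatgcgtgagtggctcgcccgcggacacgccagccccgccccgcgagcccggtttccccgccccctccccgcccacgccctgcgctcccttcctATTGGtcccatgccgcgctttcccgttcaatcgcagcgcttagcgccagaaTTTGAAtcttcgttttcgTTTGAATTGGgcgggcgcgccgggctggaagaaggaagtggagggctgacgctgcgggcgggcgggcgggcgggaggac
ESPL1: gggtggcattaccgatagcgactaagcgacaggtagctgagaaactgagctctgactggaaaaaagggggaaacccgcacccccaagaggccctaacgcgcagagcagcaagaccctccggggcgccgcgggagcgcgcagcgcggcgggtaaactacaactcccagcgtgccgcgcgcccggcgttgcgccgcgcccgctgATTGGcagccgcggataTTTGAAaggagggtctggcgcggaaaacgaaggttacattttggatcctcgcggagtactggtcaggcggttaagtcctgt
INCENP: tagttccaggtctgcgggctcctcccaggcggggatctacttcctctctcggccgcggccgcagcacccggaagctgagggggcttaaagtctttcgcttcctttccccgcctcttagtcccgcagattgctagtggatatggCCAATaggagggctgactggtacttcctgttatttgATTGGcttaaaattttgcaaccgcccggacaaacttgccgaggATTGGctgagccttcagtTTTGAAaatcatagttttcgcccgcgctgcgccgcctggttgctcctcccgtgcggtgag
MKI67 held 2 CHR elements and 2 CCAAT boxes, and its second CHR element and the box after it share 1 base. NCAPD2 and CENPF held 1 CHR element and 4 CCAAT boxes each, ESPL1 held 1 of each, and INCENP held 1 CHR element and 3 boxes. A match is a description of these letters, not of a bound site.

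FOXM1, the transcription factor that activates many G2/M genes, moved in opposite directions in the engineered lines. It stood at 155.0, 113.5 and 146.0 CPM in OE, 314.9, 326.2 and 297.6 CPM in KO and 240.2, 178.0 and 262.7 CPM in WT. No library of a group overlapped with another group. It was lower in OE than in WT (-0.71 ± 0.15, adjusted p = 0.00357), lower in OE than in KO (-1.18 ± 0.15, adjusted p = 1.68e-05) and higher in KO than in WT (0.46 ± 0.14, adjusted p = 0.033). Both OE calls held in all 22 alternatives in which the test was run again, whereas the KO call was lost in 7 of them, with an adjusted p of up to 0.139, among them those without KO replicate 1, 2 or 3 or WT replicate 1 or 2.

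CCNB1, a B-type cyclin that activates CDK1 to start mitosis, fell in KO, where FOXM1 rose. It had 529.6, 571.7 and 519.1 CPM in OE, 292.3, 315.0 and 306.9 CPM in KO and 494.2, 589.5 and 463.5 CPM in WT. Every KO library lay far below the others, while OE and WT overlapped. CCNB1 was lower in KO than in WT (-0.76 ± 0.11, adjusted p = 0.000121, 0.591-fold) and higher in OE than in KO (0.83 ± 0.11, adjusted p = 3.31e-05), and OE did not differ detectably from WT (0.07 ± 0.11, adjusted p = 0.709). Its partner CDK1 averaged 271.7 ± 19.6 CPM in OE, 311.0 ± 17.2 in KO and 310.5 ± 44.3 in WT (SD, n = 3 each) and passed no test. CCNB2, the other B-type cyclin of the list, averaged 246.9 ± 23.9, 260.2 ± 4.75 and 231.0 ± 17.1 CPM in the same groups and passed no test either, although all its KO libraries lay above those of WT. With the length offset described with the length results, CCNB2 was lower in OE than in KO (-0.32 ± 0.09, adjusted p = 0.0118).

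CCNA2, the cyclin of S phase and G2, had 194.6, 173.4 and 187.8 CPM in OE, 252.7, 268.2 and 266.1 CPM in KO and 197.2, 220.3 and 209.5 CPM in WT. KO lay above both other groups, and OE lay just below WT. It rose in KO against WT (0.33 ± 0.10, adjusted p = 0.0368) and was lower in OE than in KO (-0.50 ± 0.10, adjusted p = 0.00133), whereas OE against WT gave -0.17 ± 0.10 (adjusted p = 0.256). AURKA, the kinase of spindle poles, had 89.1, 90.2 and 90.2 CPM in OE, 111.1, 108.0 and 108.0 CPM in KO and 86.0, 85.8 and 85.6 CPM in WT, and its replicates barely differed. Its rise in KO against WT (0.35 ± 0.11, adjusted p = 0.0367) was lost in 12 of 22 alternatives, with an adjusted p of up to 0.104, and that of CCNA2 in 9, with up to 0.153. Both were lost without KO replicate 1, 2 or 3, without WT replicate 1 or 3 and without OE replicate 3, whose absence changes the pooled spread. PLK1, a master kinase of mitosis, NEK2, a centrosome kinase, and CDCA3, an adaptor for the degradation of mitotic inhibitors, passed no test. PLK1 averaged 148.6 ± 8.82 CPM in OE, 142.8 ± 1.75 in KO and 132.6 ± 2.59 in WT.

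In the spindle checkpoint, which holds anaphase back until every chromosome is attached, BUB1B and BUB3 moved in opposite directions in KO. BUB3 had 380.3, 408.7 and 397.7 CPM in OE, 254.7, 271.6 and 285.5 CPM in KO and 386.8, 484.3 and 380.4 CPM in WT. All KO libraries lay below the others, while OE and WT overlapped. BUB3 fell in KO against WT (-0.62 ± 0.11, adjusted p = 0.000913) and was higher in OE than in KO (0.55 ± 0.11, adjusted p = 0.00127), with -0.08 ± 0.11 in OE against WT (adjusted p = 0.674). BUB1B, which encodes the checkpoint protein BubR1, had 63.5, 48.4 and 60.0 CPM in OE, 101.2, 110.1 and 133.2 CPM in KO and 87.6, 76.8 and 90.9 CPM in WT. The 3 groups did not overlap.

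BUB1B fell in OE against WT (-0.57 ± 0.14, adjusted p = 0.012) and against KO (-1.0 ± 0.14, adjusted p = 6.34e-05), and rose in KO against WT (0.43 ± 0.14, adjusted p = 0.0423). The KO call was lost in 9 of 22 alternatives, with an adjusted p of up to 0.197, among them those without KO replicate 2 or 3, OE replicate 3 or WT replicate 1, 2 or 3. The OE call against WT was lost without WT replicate 1 (adjusted p = 0.053) or 3 (adjusted p = 0.056). BUB1, the kinase that gathers checkpoint proteins at kinetochores, was lower in OE than in KO (-0.43 ± 0.12, adjusted p = 0.00963) and not called against WT, and that call was lost without OE replicate 2 (adjusted p = 0.0517). The checkpoint kinase TTK and the checkpoint effector MAD2L1 passed no test, with OE against WT values of -0.29 ± 0.13 and 0.15 ± 0.13.

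Of the genes that open anaphase, only the longest was called. ESPL1, which encodes separase, the protease that cuts cohesin, had 26.5, 22.0 and 27.0 CPM in OE, 52.0, 55.0 and 49.0 CPM in KO and 51.8, 38.0 and 48.4 CPM in WT. OE lay below both groups, and KO overlapped with WT. It was lower in OE than in WT (-0.87 ± 0.15, adjusted p = 0.00151) and than in KO (-1.04 ± 0.15, adjusted p = 7.84e-05). CDC20, the activator of the anaphase-promoting complex, averaged 236.3 ± 31.2 CPM in OE, 193.6 ± 22.9 in KO and 210.6 ± 25.1 in WT. UBE2C, the complex's ubiquitin-conjugating enzyme, averaged 189.2 ± 29.9, 161.3 ± 10.7 and 179.0 ± 16.4 CPM in the same groups, and neither passed a test.

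The chromosomal passenger complex, which corrects faulty attachments and then guides cytokinesis, split within itself in OE. INCENP, its scaffold, had 77.1, 42.5 and 69.2 CPM in OE, 144.7, 144.3 and 139.4 CPM in KO and 149.7, 99.7 and 135.4 CPM in WT. OE lay below all other libraries, and OE replicate 2 and WT replicate 2 were the lowest of their groups. INCENP fell in OE against WT (-1.02 ± 0.19, adjusted p = 0.00177) and against KO (-1.18 ± 0.19, adjusted p = 0.000143), and without the pair of libraries that stood apart the difference from WT was -0.95 ± 0.12.

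BIRC5, which encodes survivin, the subunit that docks the complex on centromeres, had 388.1, 495.5 and 407.3 CPM in OE, 331.4, 313.6 and 286.5 CPM in KO and 306.4, 366.7 and 271.7 CPM in WT. OE lay above the other groups, and KO and WT overlapped. It rose in OE against WT (0.45 ± 0.13, adjusted p = 0.0215) and against KO (0.47 ± 0.13, adjusted p = 0.00831). The call against WT was lost without OE replicate 2 (adjusted p = 0.069), WT replicate 1 (0.0875) or WT replicate 3 (0.117) and when scaled by library totals, while that against KO held in all 22 alternatives. AURKB, the kinase of the complex, and CDCA8, which encodes borealin, gave -0.04 ± 0.16 and -0.02 ± 0.11 in OE against WT, neither called.

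At the kinetochore, 2 of 4 genes fell in OE, and these are large coiled-coil proteins encoded by long transcripts. CENPF, a kinetochore and nuclear matrix protein that peaks in G2, had 36.0, 30.1 and 38.7 CPM in OE, 109.3, 146.3 and 162.0 CPM in KO and 192.0, 98.1 and 275.2 CPM in WT. All OE libraries lay below all others, KO overlapped with WT, and WT itself spread 2.81-fold from its lowest library, replicate 2, to its highest. CENPF was lower in OE than in WT (-2.43 ± 0.27, adjusted p = 6.17e-05, 0.186-fold) and than in KO (-1.99 ± 0.27, adjusted p = 3.16e-05). Without OE replicate 2 and WT replicate 2 the difference from WT was -2.63 ± 0.18. In KO against WT the value was -0.44 ± 0.25 (adjusted p = 0.255), and without WT replicate 2 it was -0.75 ± 0.17 (adjusted p = 0.00775).

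CENPE, the kinetochore motor that brings chromosomes to the spindle equator, had 5.72, 4.98 and 5.17 CPM in OE, 8.41, 9.94 and 14.1 CPM in KO and 15.0, 9.17 and 17.1 CPM in WT. OE again lay below all other libraries, and KO overlapped with WT. It fell in OE against WT (-1.38 ± 0.26, adjusted p = 0.00235) and against KO (-1.03 ± 0.27, adjusted p = 0.00552). CENPA, the centromeric histone, and NDC80, the microtubule-binding subunit of the kinetochore, gave 0.02 ± 0.14 and 0.07 ± 0.13 in OE against WT, and passed no test.

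Among the spindle motors and microtubule proteins, 3 of 6 tested genes fell in OE against WT. CKAP5, which encodes the microtubule polymerase ch-TOG, had 133.0, 92.4 and 116.2 CPM in OE, 188.5, 229.9 and 268.3 CPM in KO and 213.7, 160.7 and 257.1 CPM in WT. OE lay below the rest, and the change was -0.89 ± 0.17 against WT (adjusted p = 0.00288) and -1.01 ± 0.17 against KO (adjusted p = 0.00031). KIF4A, a chromosome-bound kinesin, fell by 0.59 ± 0.12 on the log2 scale against WT (adjusted p = 0.00418) and KIF11, the motor that pushes spindle poles apart, by 0.48 ± 0.15 (adjusted p = 0.0312).

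The KIF11 call against WT was lost without OE replicate 2 (adjusted p = 0.126), WT replicate 1 (0.0919) or WT replicate 3 (0.147), and without KO replicate 2. CKAP2, a microtubule-binding protein, and TACC3, which forms a complex with ch-TOG, were lower in OE than in KO (-0.54 ± 0.15 and -0.32 ± 0.12, adjusted p = 0.00935 and 0.0442) and were called in no other comparison. With KO replicate 3 left out, CKAP2 missed the threshold (adjusted p = 0.0519), and TACC3 missed it in 12 of 22 alternatives. KIF2C, a kinesin that depolymerises microtubules, passed no test. NUSAP1, a spindle-assembly protein, had 8, 3 and 4 counts in OE, 0, 2 and 0 in KO and 2, 1 and 2 in WT and was not tested. Other genes overlap 81.43% of its exon length in the annotation used for counting, and reads that overlap more than 1 gene were left out.

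No gene of the central spindle and cytokinesis passed the test in OE against WT, although 4 of 6 were lower in OE than in KO. KIF23, the kinesin of the centralspindlin complex, had 225.3, 172.3 and 234.9 CPM in OE, 331.7, 358.1 and 396.1 CPM in KO and 277.7, 255.1 and 264.5 CPM in WT. The 3 groups did not overlap. It rose in KO against WT (0.45 ± 0.12, adjusted p = 0.0183) and was lower in OE than in KO (-0.78 ± 0.12, adjusted p = 0.00016), with -0.33 ± 0.12 in OE against WT (adjusted p = 0.067). The KO call was lost in 4 of 22 alternatives, with an adjusted p of up to 0.0869, namely without KO replicate 2 or 3 or WT replicate 2 and when scaled by library totals.

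ANLN, which encodes the contractile-ring scaffold anillin, ECT2, the activator of RhoA at the furrow, and KIF20A, a kinesin of the central spindle, were lower in OE than in KO (-0.60 ± 0.17, -0.45 ± 0.13 and -0.39 ± 0.12, adjusted p = 0.00969, 0.014 and 0.0189). Each of these calls was lost with 1 library left out, namely KO replicate 3 for ANLN and ECT2, OE replicate 2 for ECT2 and KIF20A, and KO replicate 1 or 2 for KIF20A. RACGAP1, the partner of KIF23, averaged 280.5 ± 28.2 CPM in OE, 321.0 ± 25.4 in KO and 290.6 ± 11.1 in WT and passed no test. PRC1, the bundler of antiparallel microtubules, averaged 1.18 ± 0.172, 1.87 ± 0.926 and 1.17 ± 0.0485 CPM in the same groups. Its exons overlap other genes over 61.85% of their length, so this level is a partial count.

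Of the 6 genes of chromosome structure, 5 fell in OE against WT, and the largest fall of all 43 genes was among them. MKI67, which encodes Ki-67, the protein that coats mitotic chromosomes, had 43.1, 23.0 and 35.5 CPM in OE, 126.6, 158.0 and 169.0 CPM in KO and 233.3, 94.5 and 302.7 CPM in WT. All OE libraries lay below all others, and the WT libraries spread 3.2-fold, the widest of the 43 genes in WT, with replicate 2 the lowest. Within each group the order of the MKI67 levels was that of the libraries' length slopes. These were -0.075, -0.204 and -0.083 in OE, 0.042, 0.085 and 0.129 in KO and 0.056, -0.053 and 0.103 in WT. CENPF kept this order in KO and WT but not in OE. The part of the slope in these values was not tested. MKI67 fell in OE against WT (-2.63 ± 0.31, adjusted p = 0.000104, 0.162-fold) and against KO (-2.15 ± 0.31, adjusted p = 6e-05, 0.225-fold). Without OE replicate 2 and WT replicate 2 the difference from WT was -2.76 ± 0.16, and it ran from -2.96 to -2.23 over the 22 alternatives. KO against WT gave -0.48 ± 0.29 (adjusted p = 0.285), and without WT replicate 2 it gave -0.83 ± 0.19 (adjusted p = 0.00806).

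NCAPD2, a subunit of condensin I, which compacts chromosomes, had the largest change of the 43 genes in KO against WT. It had 185.2, 157.9 and 174.5 CPM in OE, 433.0, 442.3 and 458.8 CPM in KO and 261.0, 211.7 and 264.9 CPM in WT, and the 3 groups did not overlap. It rose in KO against WT (0.86 ± 0.11, adjusted p = 5.55e-05, 1.81-fold) and fell in OE against WT (-0.51 ± 0.11, adjusted p = 0.00627) and against KO (-1.37 ± 0.12, adjusted p = 3.75e-07). Each of these calls held in all 22 alternatives. TOP2A, the topoisomerase that untangles sister chromatids, had 548.3, 549.4 and 557.6 CPM in OE, 739.0, 841.9 and 945.8 CPM in KO and 802.5, 756.1 and 911.8 CPM in WT. OE lay below the rest, by -0.58 ± 0.11 against WT (adjusted p = 0.00256) and -0.61 ± 0.11 against KO (adjusted p = 0.00048).

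SMC2 and SMC4, the paired ATPases of condensin, were lower in OE than in WT (-0.78 ± 0.18 and -0.55 ± 0.15, adjusted p = 0.00794 and 0.0185) and than in KO (-0.70 ± 0.18 and -0.66 ± 0.15). The SMC4 call against WT was lost without OE replicate 1, without WT replicate 1 (adjusted p = 0.0587) or 3 (0.0947) and with a length correction, described with the length results. NCAPG, another condensin I subunit, gave -0.24 ± 0.14 in OE against WT (adjusted p = 0.249) and was not called in any comparison. Other genes overlap 22.0% of the exon length of SMC4 and 33.7% of that of NCAPG, so part of their reads was left out. KO did not differ detectably from WT for SMC2, SMC4, NCAPG or TOP2A, so NCAPD2 was the condensin gene of the list called there. NCAPD3, a condensin subunit outside the list, rose there too.

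**Figure D2:**
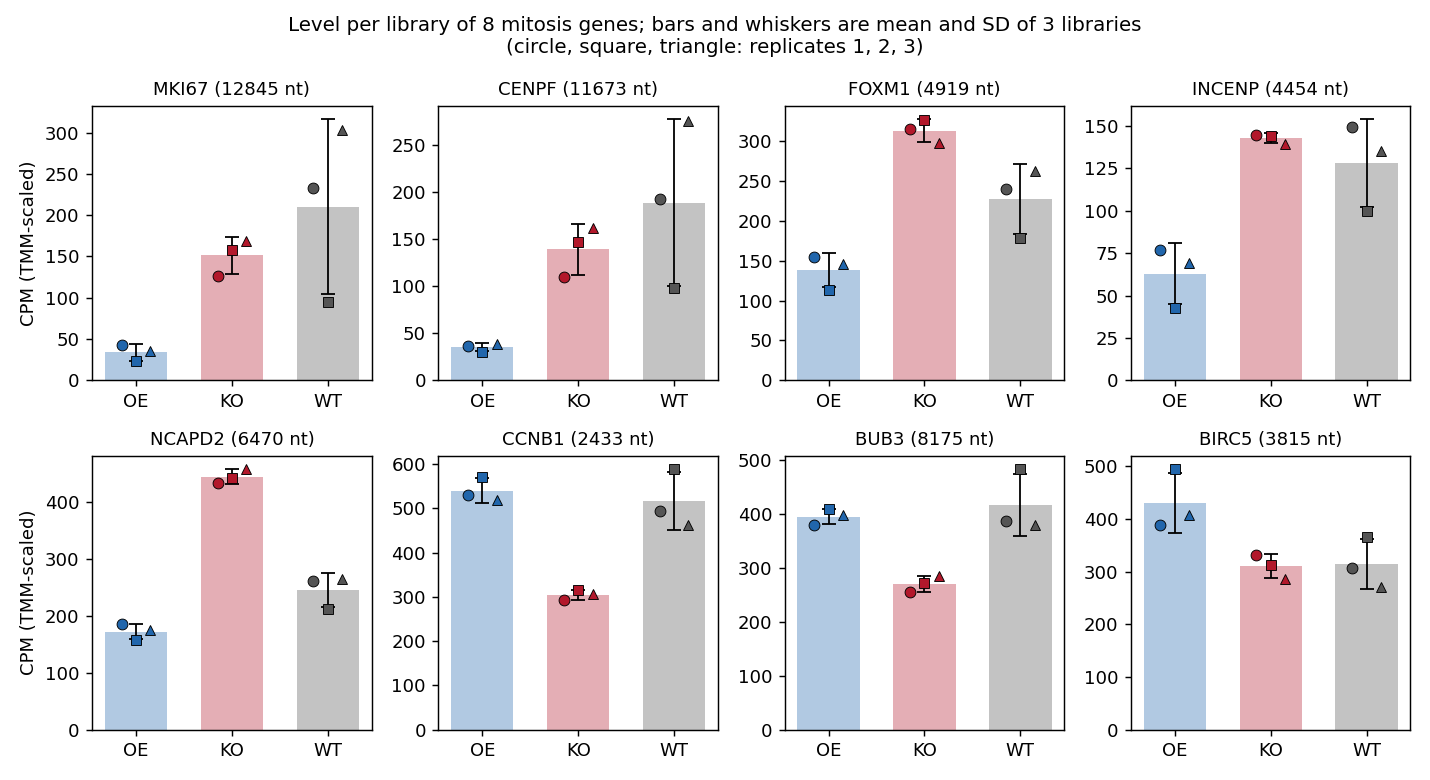
CPM (TMM-scaled) of 8 genes in each library, with the mean as a bar and the SD over 3 libraries as whiskers, and the exon length in nt beside each symbol. The 3 OE libraries of MKI67 sit between 23.0 and 43.1 CPM, below all 6 others, while for CCNB1 and BUB3 the KO libraries sit below the rest.

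Per kb of exon length, the mean level in WT was highest for CCNB1, at 212.0 CPM per kb, followed by UBE2C at 139.2 and TOP2A at 129.2. It was lowest for PRC1 at 0.211, CENPE at 1.39 and ESPL1 at 5.19. MKI67 and CENPF, at 16.4 and 16.1 CPM per kb in WT, stood at 2.63 and 2.99 in OE and 11.8 and 11.9 in KO. The coefficient of variation between replicates had a median over the 43 genes of 12.0% in OE, 8.4% in KO and 11.6% in WT, beside 15.7%, 13.3% and 15.1% over all genes tested. The exceptions with the widest spread were MKI67 in OE and WT (30.0% and 50.4%) and PRC1 in KO (49.6%).

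Exon length moved with the OE results. Sorted into 5 equal classes of length with class medians of 1777, 3432.5, 5020.5, 6970.5 and 10973.5 nt, all genes tested had median log2 fold changes in OE against WT of 0.24, 0.11, 0.01, -0.12 and -0.29. The number of mitosis genes that fell was 0 of 6, 0 of 9, 5 of 14, 4 of 9 and 5 of 5 in the same classes, beside 2.26%, 3.82%, 8.27%, 14.2% and 26.5% of all genes. In the longest class, ESPL1 (8885 nt), CENPE (9928 nt), CENPF (11673 nt), CKAP5 (8538 nt) and MKI67 (12845 nt) had a median of -1.38, beside -0.29 for the class. In the shortest, CCNB1 (2433 nt), CDC20 (2012 nt), UBE2C (1286 nt), AURKB (2241 nt), CDCA8 (2406 nt) and CENPA (1949 nt) had a median of 0.04, beside 0.24 for the class. Across the 43 genes, the log2 fold change and the log2 length had a Pearson r of -0.66 and a Spearman rho of -0.65 in OE against WT, beside -0.31 and -0.36 across all genes, which share the libraries. In KO against WT they were 0.00 and 0.08.

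Exceptions in both directions stood out. BUB3 (8175 nt) and TACC3 (8186 nt) had a long exon length, which joins all annotated exons and can exceed that of the transcript expressed. They gave -0.08 and -0.11 in OE against WT. By contrast, INCENP (4454 nt), BUB1B (4463 nt), KIF4A (4573 nt) and FOXM1 (4919 nt) were of middle length and fell by 0.57 to 1.02 on the log2 scale. The longest and shortest members differ in role too, so length and role cannot be told apart over so few genes.

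**Figure D3:**
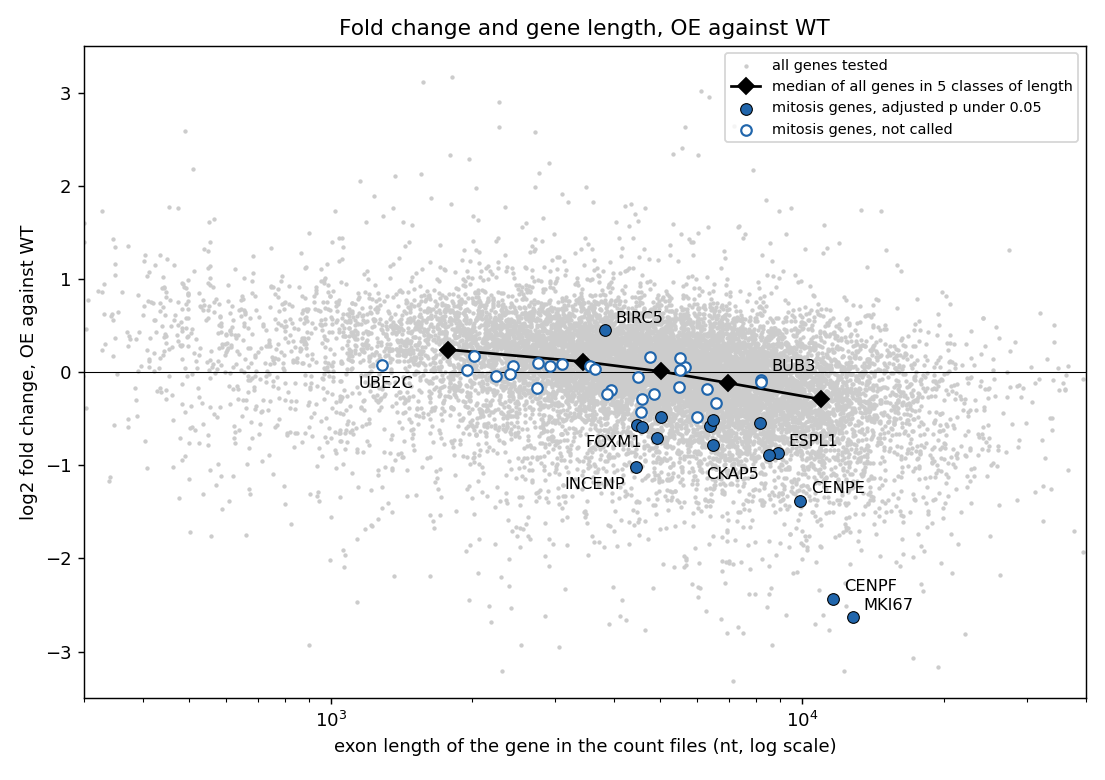
Log2 fold change of OE against WT and exon length (nt, log scale), with all genes tested in grey, the median of all genes in 5 classes of length as black diamonds and the mitosis genes in blue, filled where the adjusted p was under 0.05. Genes outside the axes are not drawn, and MKI67 and CENPF sit far below the class medians, at -2.63 and -2.43.

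Each library's smooth trend of level on length was entered as an offset in the edgeR fit, to take out the trend of all genes. The class medians of all genes were then 0.00 to 0.01 in OE against WT, which the offset brings about by design. Any further relation of the mitosis genes to length was left in. With the offset, the 5 genes of the longest class lay at -2.26 to -0.65 and the 6 of the shortest at -0.26 to -0.06. Whether the remaining calls are free of length was not tested. With the offset, 15 of the 43 genes fell in OE against WT (34.9%, beside 9.55% of all genes) and 1 rose (2.33%, beside 10.3%), and 13 of the 14 genes that fell before were among the 15. SMC4 was lost (-0.35 ± 0.13, adjusted p = 0.0666), and CCNA2 and CKAP2 were gained (-0.34 ± 0.11 and -0.45 ± 0.14, adjusted p = 0.034 and 0.0306). MKI67 and CENPF moved to -2.26 ± 0.23 and -2.09 ± 0.20, CENPE to -1.11 ± 0.23, and INCENP and FOXM1 were at -1.05 ± 0.17 and -0.71 ± 0.13. The median of the 43 genes was -0.24 with the offset, beside 0.009 over all genes. BIRC5 remained higher (0.37 ± 0.11, adjusted p = 0.0226).

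Against KO, 27 of the 43 were lower in OE with the offset (62.8%, beside 18.4% of all genes), 21 of them called before. TACC3 was lost (-0.08 ± 0.13), and AURKA, CCNB2, CDCA8, CDK1, NEK2 and TTK, of 2406 to 4579 nt, were gained. The same 3 genes were higher, beside 19.4% of all genes. In KO against WT, the 6 higher and 2 lower genes were called again, beside 10.9% and 11.2% of all genes, and NEK2 was added as higher (0.37 ± 0.11, adjusted p = 0.018).

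**Figure D4:**
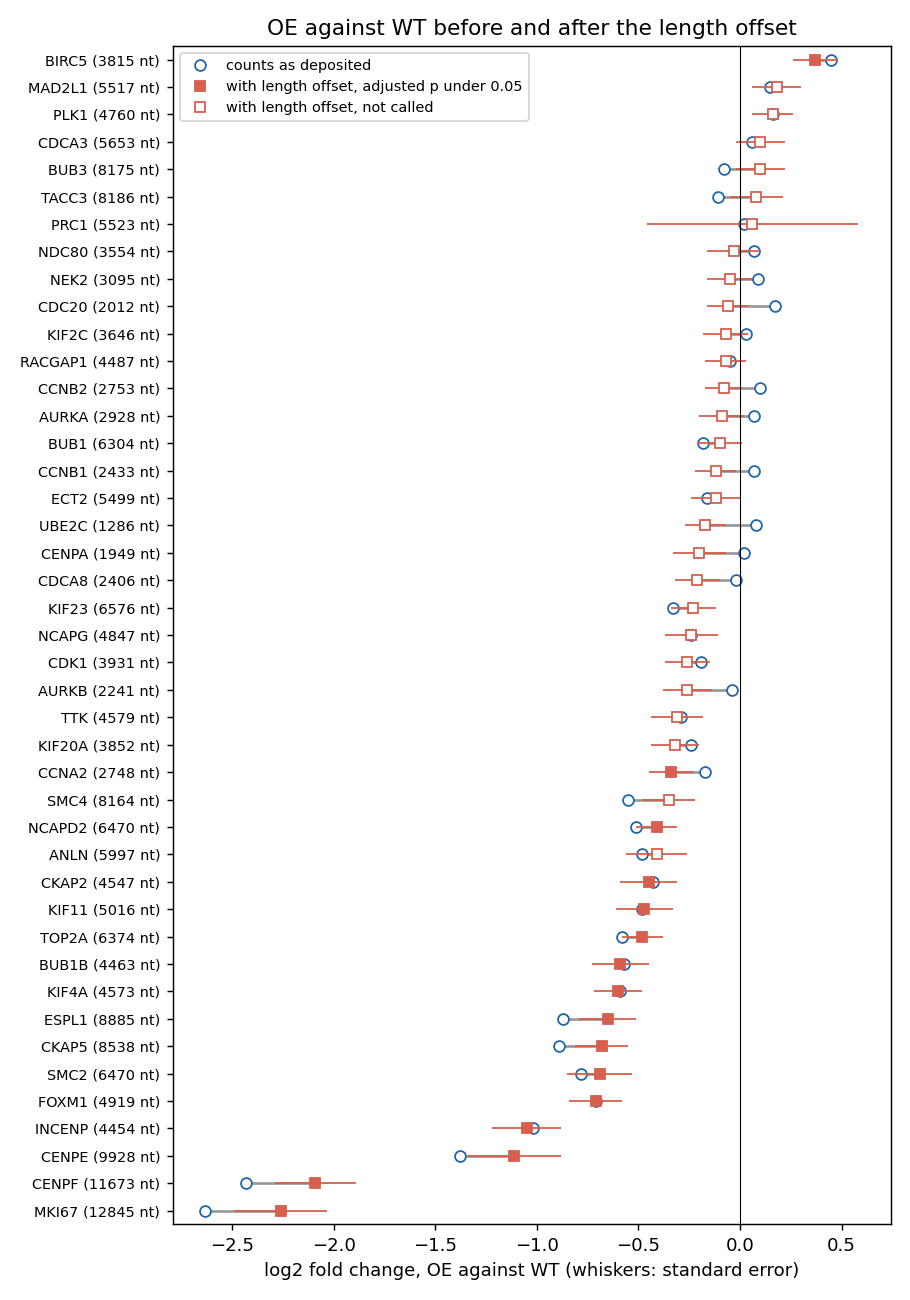
Log2 fold change of OE against WT for the 43 genes from the counts as deposited (blue circles) and with the length offset (red squares, filled where the adjusted p was under 0.05, whiskers 1 SE), sorted by the value with the offset, with exon length beside each symbol. Squares of the longest genes lie closer to 0 than their circles, and MKI67 and CENPF stay the lowest at -2.26 and -2.09.

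In KO, position on the chromosome moved with several of the calls. For each gene the median log2 fold change of its 50 nearest tested neighbours was taken. It was above 0.25 for 6 of the 43 genes (14.0%, beside 4.72% of all genes) and below -0.25 for 2 (4.65%, beside 6.54%). Genes that lie close together can share neighbours, so the 6 need not stand for 6 separate neighbourhoods. FOXM1 (chr12:2857680-2877174), NCAPD2 (chr12:6493356-6531955) and CDCA3 (chr12:6844793-6852066) lie close together and had neighbour medians of 0.33, 0.35 and 0.48, next to their own 0.46, 0.86 and 0.27. On chromosome 15, BUB1B (chr15:40161023-40221123), CCNB2 (chr15:59105126-59125045) and KIF23 (chr15:69414246-69448427) had neighbour medians of 0.40, 0.28 and 0.26, next to 0.43, 0.17 and 0.45.

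Thus 4 of the 6 genes called as higher in KO had a neighbour median above 0.25. The same share among all genes called as higher in KO was not taken, so the 4 have no background to be read against. CCNB1 (chr5:69167135-69178245), at -0.76, had a neighbour median of -0.38, and SMC2, at -0.08, had -0.32. BUB3 and AURKA had neighbour medians of 0.02 and -0.09, so their KO values of -0.62 and 0.35 were not shared by the neighbours. CCNA2, at 0.33, had a neighbour median of 0.12. The part of the neighbourhood in the KO values was not tested. In OE against WT, the neighbour medians of the 4 genes that fell most did not follow the genes, with 0.02 for MKI67, -0.04 for CENPF, 0.17 for CENPE and 0.12 for INCENP.

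**Figure D5:**
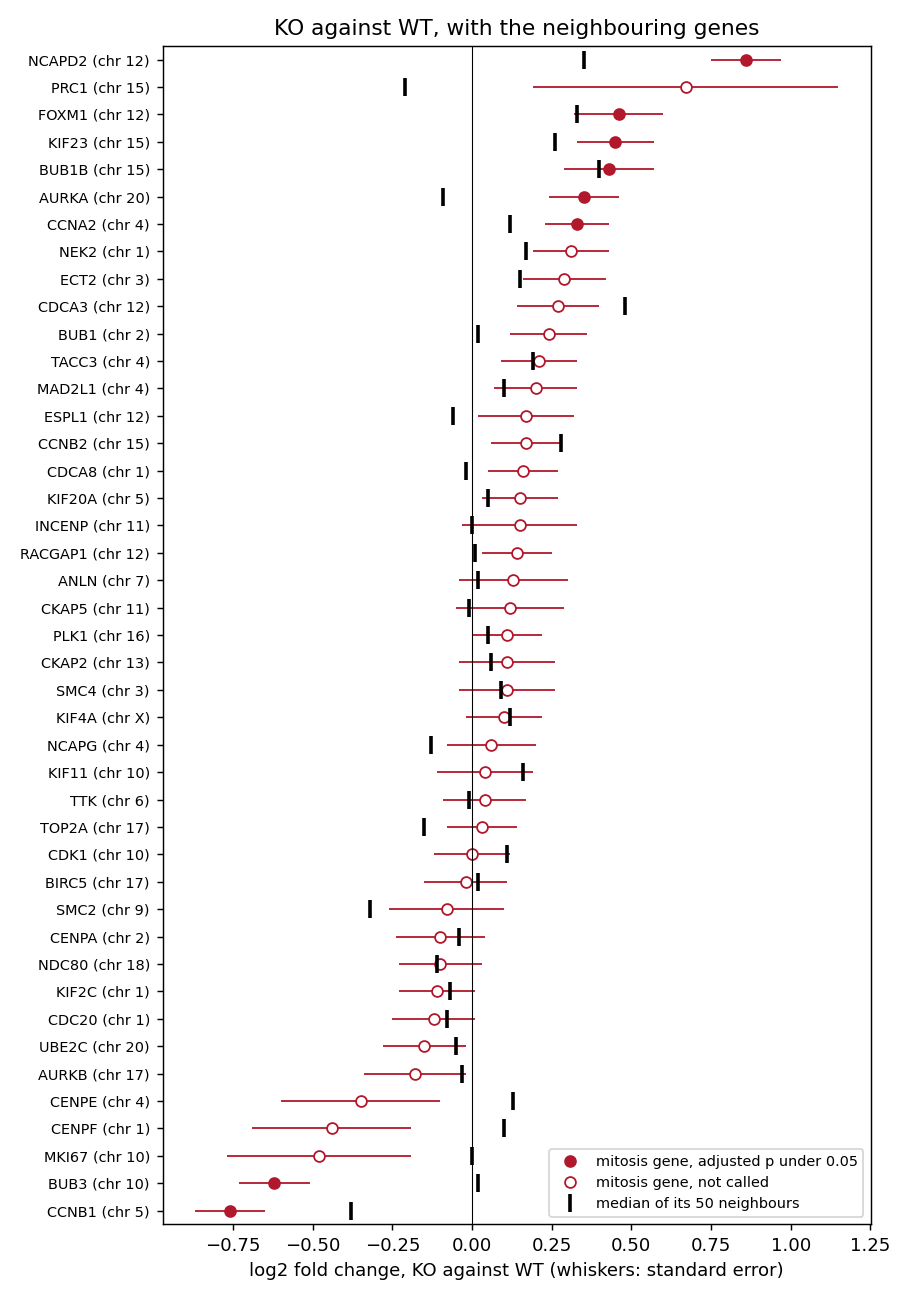
Log2 fold change of KO against WT for the 43 genes (circles, filled where the adjusted p was under 0.05, whiskers 1 SE), and the median of each gene's 50 nearest tested genes (black bars), with the chromosome beside each symbol. The bars of BUB1B and FOXM1 lie near the genes' own values of 0.43 and 0.46, and the bar of BUB3 lies near 0 with the gene at -0.62.

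Further genes of mitosis were read from lists that hold none of the 44. Their counts stand beside the shares of all genes tested. In OE against WT, 11% of all genes fell and 9.65% rose, with 9.55% and 10.3% under the length offset. In KO against WT, 9.6% fell and 9.16% rose, with 11.2% and 10.9% under the offset. Of 16 other spindle and cytokinesis genes, 11 fell and 0 rose in OE against WT, with a median of -0.68 before and -0.57 with the length offset, under which 11 fell as well. KIF15, a spindle kinesin, changed by -1.37 ± 0.19 (adjusted p = 0.000347), SPAG5, the spindle protein astrin, by -0.69 ± 0.12 (adjusted p = 0.00149) and CIT, the cytokinesis kinase citron, by -1.23 ± 0.23 (adjusted p = 0.00204). In KO against WT, 1 of the 16 was called, HMMR, a spindle-pole protein, which fell by 1.25 ± 0.19 on the log2 scale (adjusted p = 0.000154). Of 31 other kinetochore genes, 3 fell and 1 rose in OE against WT, with 9 and 1 under the offset, and of 25 other mitotic regulators 0 fell and 1 rose, with 2 and 1 under the offset.

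PTTG1, which encodes securin, the inhibitor of separase, was the regulator that rose in OE, with 185.8, 258.8 and 218.3 CPM in OE, 78.1, 84.3 and 81.7 CPM in KO and 144.0, 168.6 and 142.2 CPM in WT. OE lay above WT and KO below it. The changes were 0.54 ± 0.13 in OE against WT (adjusted p = 0.00871) and -0.90 ± 0.13 in KO against WT (adjusted p = 0.00013). In KO against WT, 2 rose and 2 fell among these 25 regulators, and 3 rose and 2 fell among the 31 kinetochore genes, of which CENPL rose by 1.03 ± 0.14 and CENPH fell by 0.83 ± 0.13 on the log2 scale (adjusted p = 5.84e-05 and 0.000194). The medians of their 50 neighbours in KO against WT were 0.85 for CENPL, -0.39 for CENPH, -0.78 for PTTG1 and -0.84 for HMMR. Among the other called regulators and kinetochore genes, NUF2 (0.70) and CKS2 (-0.66) had neighbour medians of 0.45 and -0.37. Those of KNTC1 (0.60), GTSE1 (0.51), CDC25A (0.40) and CENPU (-0.52) were 0.01, -0.04, 0.04 and -0.07. Of the tested mitosis genes and those of the further lists on chromosome 5, PTTG1, CENPH, HMMR and CCNB1 fell in KO and CDC23 rose (0.49 ± 0.13, adjusted p = 0.0131), while CENPK, KIF20A and CDC25C were not called (0.37 ± 0.14, 0.15 ± 0.12 and -0.09 ± 0.17).

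Of 9 other condensin and cohesin subunits, 5 fell in OE against WT and 2 with the offset, among them SMC1A, a cohesin ATPase (-0.91 ± 0.18, adjusted p = 0.00251). In KO against WT, 2 of the 9 rose and 0 fell, with the same counts under the offset. NCAPD3 was among those that rose (0.45 ± 0.15, adjusted p = 0.0395), with a neighbour median of -0.08. The 15 subunits of the anaphase-promoting complex gave 2 higher and 0 lower in OE against WT, with a median of 0.18 (2, 0 and 0.25 with the offset), and ANAPC13 and CDC26 were the higher ones (0.55 ± 0.13 and 0.62 ± 0.16, adjusted p = 0.00786 and 0.0116). Of 11 DREAM and MuvB subunits, which repress or activate these promoters through the cycle, 2 fell, RBBP4 and RBL1 (-0.37 ± 0.10 and -0.56 ± 0.17, adjusted p = 0.0174 and 0.0295), with a list median of -0.37. With the offset 1 of the 11 fell and the median was -0.14. CDKN1A, which encodes the cell-cycle inhibitor p21, averaged 125.4 ± 8.64 CPM in OE, 109.4 ± 8.88 in KO and 180.5 ± 17.8 in WT. It fell in OE (-0.53 ± 0.12, adjusted p = 0.00669) and in KO (-0.72 ± 0.12, adjusted p = 0.000404) against WT. It belongs to a list of 13 inhibitors and G1 cyclins, of which 2 rose and 2 fell in OE, and 4 rose and 1 fell in KO, with 1 and 2 in OE and 5 and 1 in KO under the offset.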

How the data were processed

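RNA was measured in 9 libraries, 3 per group, grouped by genotype label. The authors deposited whole-number counts per gene, not normalized. Per the file headers, they came from featureCounts 1.5.2 on Ensembl release 101 of GRCh38 with no option beyond annotation and output, so strand was ignored and reads overlapping more than 1 gene or mapping to several places were left out. Overlapping and antisense genes are thus partly counted. The submitters' processing notes name HISAT2 1.03, FastQC, DESeq2, Subread and a different featureCounts version, 0.1.0. Exon length is the length column of the count files, the union of a gene's exons.

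From the counts, 1 edgeR 4.0.16 model (R 4.3.3) with group as its only term was fitted to all 9 libraries after TMM scaling and a filterByExpr minimum of 10 counts. Contrasts were tested by quasi-likelihood F tests with Benjamini-Hochberg adjustment over 14150 genes. Called means an adjusted p below 0.05, and unless another tool is named an adjusted p comes from this model. The biological coefficient of variation common to all genes was 0.15, with 6 residual degrees of freedom. SE is that of the log2 fold change. Symbols were matched for 60401 identifiers. The fits were tested on simulated data with and without a length trend, and no outcome of these runs is given or used here.

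The 22 alternatives that reran the test were DESeq2 1.42.0, limma-voom (limma 3.58.1), median-of-ratios, upper-quartile and library-total scaling, no filter, only the 6 libraries compared, protein-coding genes only, a length offset (lowess, span 0.3), a replicate block, the block with the offset, each of 9 libraries left out, and, chosen after seeing the data, OE replicate 2 with WT replicate 2 left out, without and with the offset. A threshold of 0.01 and a bound of 0.4 on the median of 50 neighbours were applied too. Values in every library are given for up to 8 genes with the smallest adjusted p in each comparison, those at either end of the log2 fold change and those called against the majority. Of other lists, up to 4 genes with the smallest adjusted p were eligible, and further genes are named for their position on the chromosome. The members and lists were chosen with earlier results of these data known, so no p is given over a list. Motifs were searched in RefSeq promoter windows of GRCh38.p14.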

Additional observations from a re-analysis of the deposited data

How the results depend on the processing

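Of 129 pairs of gene and comparison, 48 were called. None of these changed sign under the 22 alternatives that reran the test, and 16 were lost in at least 1. Of the 81 not called, 35 changed sign in some alternative, none of them called there, with sizes of up to 0.25. Genes called in every alternative numbered 11 lower and 0 higher in OE against WT, 15 lower and 3 higher in OE against KO, and 1 higher and 2 lower in KO against WT. The count of genes higher in KO against WT, 6, was 2 with upper-quartile scaling, 1 with library totals, 1 at an adjusted p under 0.01 and 10 with the offset and OE replicate 2 and WT replicate 2 left out, an alternative added after seeing the data. The count lower in KO, 2, was 4 with no filter, 4 without that pair of libraries and 5 with the offset as well. The count higher in OE against WT, 1, was 0 with library totals and at 0.01. Library totals moved the median of all genes to -0.129 in OE against WT. Leaving out each library gave 1 to 6 higher and 2 to 4 lower in KO against WT, 0 to 1 higher and 11 to 16 lower in OE against WT, and 3 higher and 18 to 22 lower in OE against KO. The counts of all genes moved with the setting too. In OE against WT, 759 of 14465 genes were lower without WT replicate 3 and 1875 of 14518 without WT replicate 2. In KO against WT, 879 of 14505 were higher without KO replicate 2 and 1570 of 14554 without OE replicate 2. Over all genes, the 1296 higher in KO became 1096 with upper-quartile scaling and 1025 with library totals. The cause of these moves was not tested.

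With the replicate number as a replicate block, 17 genes were lower and 1 higher in OE against WT, beside 13.7% and 12.9% of all genes, which had been 11% and 9.65% without it. In OE against KO 24 were lower and 4 higher, beside 22.7% and 20.7%, and in KO against WT 2 and 6, beside 11.4% and 11.5%. With the block and the length offset, 4 were lower in KO against WT, beside 12.6%. Same-numbered libraries of different groups correlated between -0.21 and 0.33 in their deviations from the group means, and not every library correlated best with its own number, so the numbers were not taken as a pairing.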
